A study of Mus musculus with 2 samples.

Results

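The genes described here are 59 mouse genes of the interferon system: the receptors, kinases and transcription factors that carry the interferon signal, the sensors of foreign nucleic acid, the antiviral effectors and the guanylate-binding proteins with related GTPases. They were named as a list of gene symbols, with the result of the comparison below already known, so every value is given as a description and no test is made on the list. Of the 59 symbols, all found among the 55450 reference genes, 57 had at least 1 listed tag in at least 1 library, out of 14450 genes with a listed tag in the series. *Irf8* and *Ifitm2* had none that belonged to 1 gene only.

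Digital gene expression tag profiling was applied to 2 established mouse cell lines, with 1 library for each. GC-1spg came from type B spermatogonia of a mouse aged 10 days and carries pSV3-neo; its labels place it just before the primary spermatocyte. GC-2spd (ts) came from spermatocytes of a mouse aged 6 weeks, carries the SV40 large T antigen and is labelled premeiotic. The study's methods do not say whether pSV3-neo supplied the same antigen to GC-1spg, so no difference in it between the lines is meant. Both lines were grown in the same serum-containing medium, no agent that induces interferon is named for either of them, and each is a transformed line and not a sample of testis.

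Interferons are secreted proteins that bind receptor pairs at the cell surface. The receptors activate Jak kinases, which phosphorylate Stat proteins, and the Stat proteins, together with Irf9 or as dimers, switch on a large set of antiviral genes through short promoter motifs. Cells make type I interferon when sensors such as Tlr3, Ddx58 and Ifih1 meet viral RNA or when the Tmem173 pathway meets DNA, and the antiviral genes include many of the sensors and factors themselves.

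In this assay each transcript gives a tag of 21 bases that starts at an NlaIII site, CATG. A tag was assigned to a gene where its best match, with at most 1 mismatch, lay in 1 gene only, and the copies were summed per gene on the sense strand. Levels are given in TPM, the copies per 1000000 clean tags, from totals of 5072149 and 4726808 clean tags; here and below, where a pair of values is given, GC-1spg comes first and GC-2spd (ts) second. A transcript gives 1 tag whatever its length, so TPM needs no scaling by length, but tags that match several genes or run into the poly(A) tail are not counted, and a gene's level is then a part of its total. The list of tags starts at 2 copies, and 1 copy stands for 0.197 and 0.212 TPM. A gene was called higher or lower where the TPM ratio of GC-2spd (ts) over GC-1spg was at least 2-fold. Its exact 95% interval (Clopper-Pearson) also had to leave out a ratio of no change. A gene unlisted in 1 library was called where it passed 2-fold against an upper limit for that library. This limit, one-sided 95% Poisson, assumed as many hidden single copies as the gene had distinct tags in the other library. The "at least" folds and smallest allowed ratios below are taken against this limit and are not hard bounds. With 1 library a line there is no replicate check, so the ratios compare these 2 libraries and not the 2 cell types, the intervals cover counting error only, and a lower level may mean fewer cells that express the gene or less RNA in each, which cannot be told apart.

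Most of the interferon genes stood higher in GC-2spd (ts). Of the 57 listed genes 31 were called higher, 2 were called lower (*Irf1* and *Tyk2*) and 24 were neither. Over all 14450 genes with a listed tag 14.4% were called higher and 9.92% lower, and over the 11298 genes with at least 10 tags 18.3% and 12.7%; all 33 called genes of the list were among the 52 that had 10 tags. The Audic-Claverie test at a false discovery rate of 0.001 with the same 2-fold called 28 higher and 1 lower of the list, and 11.7% and 7.84% of all genes. The list was drawn up with this same contrast in view, so nothing is read from the difference between these shares. The median log2 ratio was 1.49 over the 57 genes and 0.13 over all genes; it was 1.27 with the genes unlisted in 1 library set to the smallest ratio their counts allow. The ratios were spread widely, from -1.29 to 8.34 with 0.5 tags added to both counts, and 46 lay above 0 and 11 below. Summed over the list, the level was 831 and 1733 TPM. Scaling by TMM moved the median of all genes listed in both libraries by -0.17 and that of the list to 1.32, and turned the sign of *Oas3* and *Isg20*, neither of which was called.

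Levels and calls are given next by role. The effectors went from 193 to 913 TPM and 21 of the 29 listed were called higher, none lower. The sensors went from 72.6 to 127 TPM with 3 of 7 called higher, and the guanylate-binding proteins and related GTPases from 47.7 to 79.3 TPM with 2 of 5 called higher. With poly(A) added to the reference transcripts, so that tags reaching into the tail are counted, these last sums were 118 and 189 TPM for the sensors and 145 and 235 TPM for the GTPases, and the effectors had 236 and 931 TPM. The receptors, kinases, factors and feedback genes went from 518 to 613 TPM, with 5 called higher, 2 called lower and 9 neither, at a median log2 ratio of 0.08. The plot of TPM by gene shows this: the signalling genes were mostly above 10 TPM in GC-1spg already, whereas many effectors lay near 1 TPM there.

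**Figure D1:**
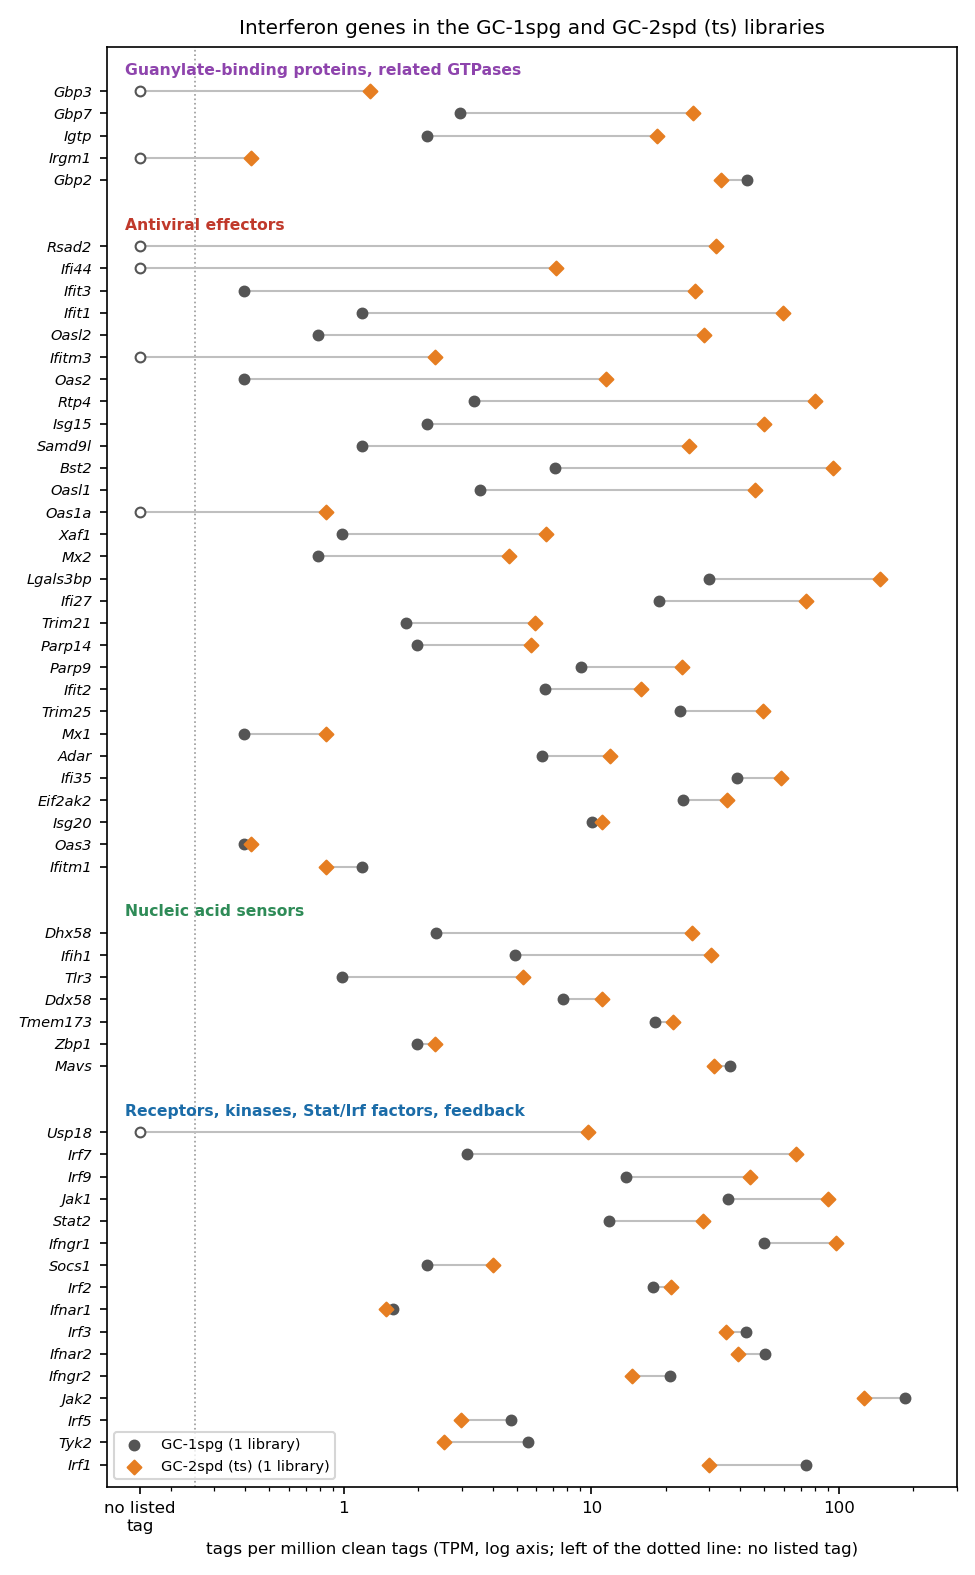
Level of each of the 57 listed interferon genes in TPM (copies per 1000000 clean tags, log axis), with circles for the GC-1spg library, diamonds for the GC-2spd (ts) library and open circles for genes with no listed tag in GC-1spg. Genes are grouped by role; 7 genes have an open circle, and the effectors show the widest gaps, for example *Ifit1* at 1.18 and 59.2 TPM.

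The tags that carry the counts are shown for the 12 called genes with the most tags, so that the transcript ends measured can be located. Each is the most abundant tag of its gene, the capitals mark the NlaIII site, and positions are on GRCm38 with GENCODE M21 exons.
*Irf1*, chr11:53777263-53777283, plus strand, exon 10, 3′ UTR: CATGtggtggacctgtgtaaa
*Irf7*, chr7:141263229-141263249, minus strand, exon 10, coding sequence: CATGgacctgggtcagtggcc
*Irf9*, chr14:55609971-55609991, plus strand, exon 10, 3′ UTR: CATGgaccctaaacctttaga
*Jak1*, chr4:101152581-101152601, minus strand, exon 25, 3′ UTR: CATGaccaagagtctggcaaa
*Isg15*, chr4:156199666-156199686, minus strand, exon 2, coding sequence: CATGgaggacaaggagctgct
*Ifit1*, chr19:34648467-34648487, plus strand, exon 2, coding sequence: CATGgctgaagtgcaggcaga
*Oasl1*, chr5:114937693-114937713, plus strand, exon 6, 3′ UTR: CATGttcagagaaagccaaac
*Bst2*, chr8:71534724-71534744, minus strand, exon 4, coding sequence: CATGgtggtctccagcctact
*Rtp4*, chr16:23613615-23613635, plus strand, exon 4, 3′ UTR: CATGgcccacacataatggac
*Ifi27*, chr12:103440078-103440098, plus strand, exon 7, coding sequence: CATGgcgacagaggtggcaga
*Trim25*, chr11:89020003-89020023, plus strand, exon 9, 3′ UTR: CATGgtagctagccactacca
*Lgals3bp*, chr11:118392823-118392843, minus strand, exon 6, 3′ UTR: CATGaggtcctgtgggatttc
All but the *Ifit1* tag lie at the NlaIII site nearest the 3′ end of a transcript, which is where this protocol is built to read. The *Ifit1* tag lies at the third site from that end and had 0 and 174 copies. Over all 57 genes 90.6% and 88.2% of the copies lay at the site nearest the 3′ end.

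The interferon receptor genes all had listed tags in both libraries and none was called, but *Ifnar1* and *Ifngr2* were poorly measured. *Ifnar1* and *Ifnar2* encode the chains of the type I receptor. *Ifnar1* had 8 and 7 tags, of which 0 and 2 lay at the site nearest the 3′ end. A tag that *Ifnar1* shares with many genes had 19699 and 11249 copies and is not counted. *Ifnar2* had 255 and 185 tags, or 50.3 and 39.1 TPM (log2 ratio -0.36, interval -0.64 to -0.08). The type II receptor, which binds interferon gamma, is made of Ifngr1 and Ifngr2. *Ifngr1* had 252 and 460 tags, or 49.7 and 97.3 TPM, a ratio of 1.96-fold (log2 ratio 0.97, interval 0.75 to 1.20) that fell just short of 2-fold. *Ifngr2* had 105 and 69 tags, or 20.7 and 14.6 TPM, at a log2 ratio of -0.50. Most of its copies lay at sites far from the 3′ end, and the site nearest that end had 5 and 6 copies (log2 ratio 0.34). Its antisense copies, 147 and 107, outnumbered the sense ones. Together the 4 receptor genes came to 122 and 153 TPM.

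The 3 Jak kinases that serve these receptors differed from one another. *Jak1*, used by both receptor types, had 181 and 426 tags, or 35.7 and 90.1 TPM, and was called higher at 2.53-fold (log2 ratio 1.34, interval 1.08 to 1.6). *Jak2*, the partner kinase at the interferon gamma receptor, had the most GC-1spg tags of the listed genes, with 941 and 598 tags, or 186 and 127 TPM (log2 ratio -0.55, interval -0.70 to -0.40), and was not called. *Tyk2*, the partner at the type I receptor, had only 28 and 12 tags, or 5.52 and 2.54 TPM, and was called lower with a wide interval (log2 ratio -1.12, interval -2.23 to -0.10); the call was lost by the Audic-Claverie test and with a 99% interval. The sum of the 3 kinases was 227 and 219 TPM.

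Among the transcription factors *Stat2*, *Irf9* and *Irf7* were called higher and *Irf1* was called lower. *Stat2* and *Irf9* encode parts of the complex that binds the interferon-stimulated response element. *Stat2* had 60 and 133 tags, or 11.8 and 28.1 TPM (log2 ratio 1.25, interval 0.80 to 1.71), and *Irf9* had 70 and 206, or 13.8 and 43.6 TPM (log2 ratio 1.66, interval 1.26 to 2.07). *Irf7*, known as the factor that amplifies interferon alpha genes, showed the widest gap of the factors. It had 16 and 316 tags, or 3.15 and 66.9 TPM, a ratio of 21.2-fold (log2 ratio 4.41, interval 3.68 to 5.23).

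*Irf1*, a factor induced by interferon gamma, ran the other way: it had 372 and 141 tags, or 73.3 and 29.8 TPM (log2 ratio -1.30, interval -1.59 to -1.01). Nearly all of its count lies in the tag printed above, with 364 and 136 copies. *Irf3*, a factor activated through the sensors, had 213 and 166 tags (log2 ratio -0.26), and *Irf2*, an antagonist of Irf1, had 90 and 99. *Irf5* had 24 and 14 tags. None of these 3 was called. The feedback gene *Usp18*, whose product removes Isg15 from proteins and damps the type I receptor, had no listed tag in the GC-1spg library and 46 tags in the other, equal to 9.73 TPM and at least 4.70-fold higher. *Socs1*, a Jak inhibitor, had 11 and 19 tags with an interval from -0.25 to 2.11 on the log2 scale, too wide for a call.

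**Figure D2:**
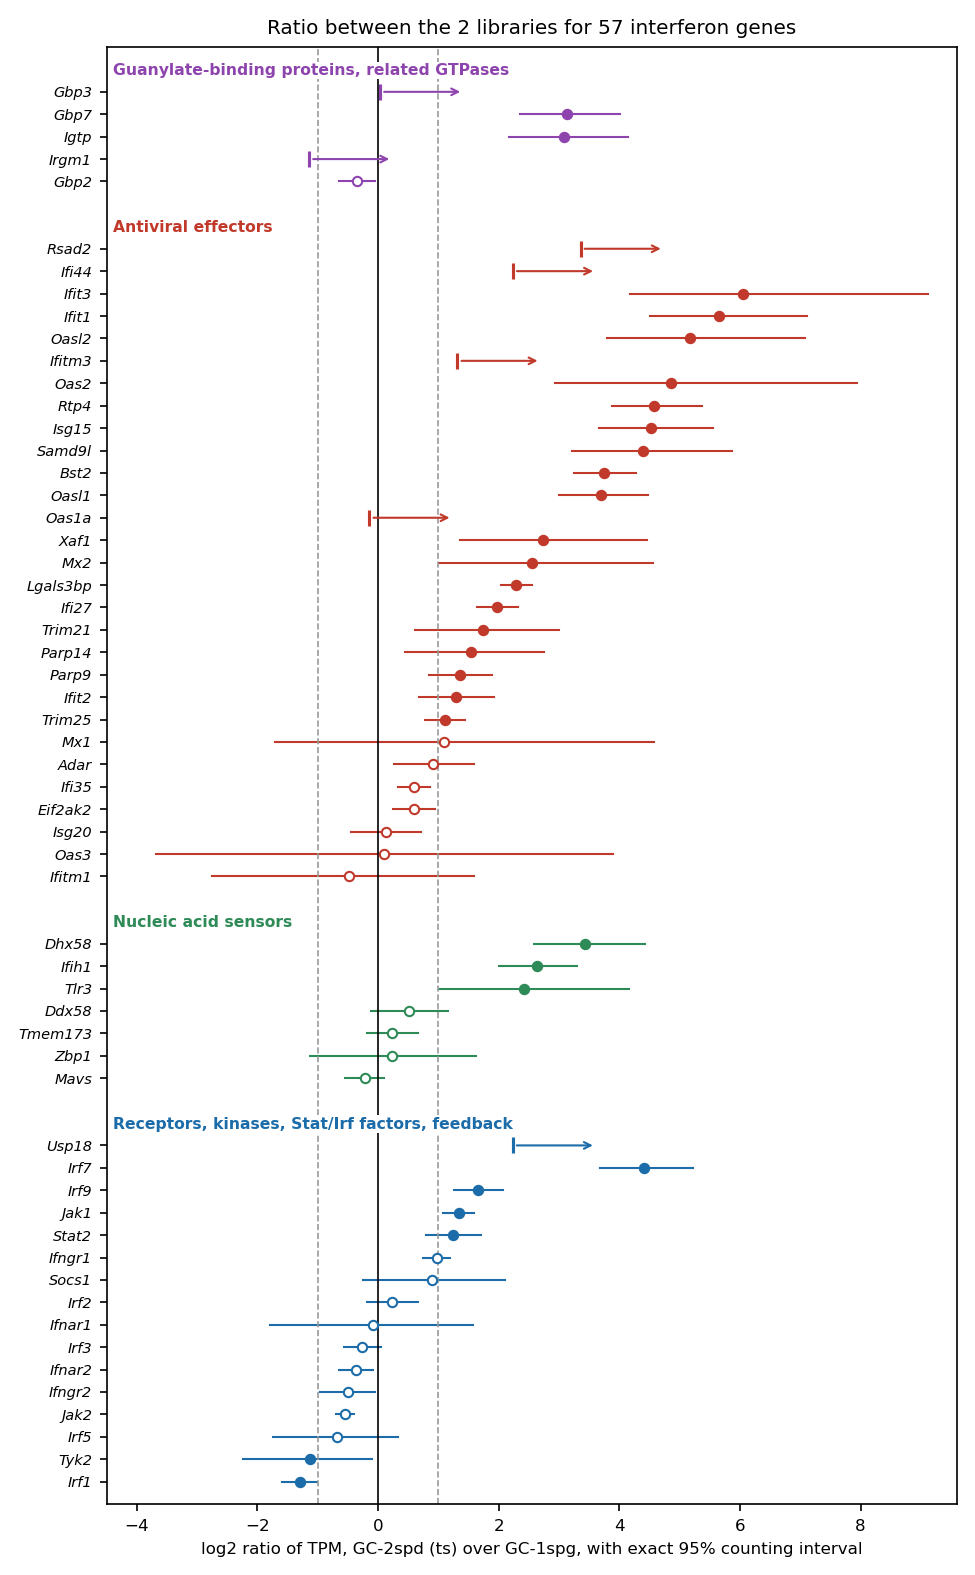
Log2 ratio of TPM, GC-2spd (ts) over GC-1spg, for the 57 listed interferon genes, with exact 95% counting intervals as lines. Filled points were called, open points were not, a bar with an arrow marks the smallest ratio that the counts of a gene unlisted in GC-1spg allow, and dashed lines mark 2-fold; *Irf1* and *Tyk2* are the filled points left of 0.

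All calls among the sensors fell on sensors of double-stranded RNA. The 4 sensors of double-stranded RNA, *Tlr3*, *Ddx58*, *Ifih1* and *Dhx58*, summed to 16.0 and 72.4 TPM, or 4.53-fold (3.29-fold with poly(A) tags), and 3 of them were called higher. *Ifih1*, the sensor of long RNA duplexes also known as MDA5, had 25 and 144 tags, or 4.93 and 30.5 TPM (log2 ratio 2.63, interval 2.01 to 3.30). *Dhx58*, or LGP2, which modulates the other helicases, had 12 and 121 tags, or 2.37 and 25.6 TPM (log2 ratio 3.44, interval 2.58 to 4.43). *Tlr3*, the endosomal receptor, had 5 and 25 tags (log2 ratio 2.42, interval 1.01 to 4.17). *Ddx58*, or RIG-I, had 39 and 52 tags, at a log2 ratio of 0.52 whose interval from -0.11 to 1.15 holds no change. With poly(A) tags counted *Ddx58* had 136 and 269 tags (log2 ratio 1.09, interval 0.78 to 1.39) and would be called higher. The adaptor *Mavs*, through which the RNA helicases signal, had 185 and 148 tags (log2 ratio -0.22). The last genes of this group were close to even: *Tmem173*, or STING, had 92 and 101 tags (log2 ratio 0.24), and *Zbp1*, a sensor of left-handed nucleic acid, had 10 and 11. This covers these genes only and not DNA sensing at large.

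The Ifit family, whose proteins bind viral RNA and block its translation, had all 3 of its listed members called higher and went from 8.08 to 101 TPM. *Ifit1* had 6 and 280 tags, or 1.18 and 59.2 TPM, a ratio of 50.1-fold (log2 ratio 5.65, interval 4.51 to 7.10). *Ifit3* had 2 and 124 tags, or 0.394 and 26.2 TPM (log2 ratio 6.06, interval 4.17 to 9.12). *Ifit2* stood apart from the other two with 33 and 75 tags (log2 ratio 1.29, interval 0.68 to 1.92). The counts of *Ifit1* came from several sites, of which the printed one is the third from the end and the site nearest the end had 6 and 101 copies.

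The oligoadenylate synthetases make the second messenger that switches on RNase L, and their 5 listed genes went from 5.13 to 87.2 TPM. With poly(A) tags counted the sums were 47.7 and 105 TPM, or 2.20-fold, since *Oas1a* then had 42.6 and 18.6 TPM (log2 ratio -1.19), the other direction. Most of the sum without poly(A) tags lay in the like genes *Oasl1* and *Oasl2*. *Oasl1* had 18 and 217 tags, or 12.9-fold (log2 ratio 3.69, interval 3.0 to 4.48), and *Oasl2* had 4 and 135 (log2 ratio 5.18, interval 3.79 to 7.08). *Oas2* had 2 and 54 tags (log2 ratio 4.86, interval 2.93 to 7.94). *Oas1a* and *Oas3* carried few tags that belong to them alone: *Oas1a* had 0 and 4, and *Oas3* had 2 and 2. A tag shared by *Oas1a* and its near copy *Oas1g* had 8 and 80 copies (log2 ratio 3.42, interval 2.38 to 4.68), so the level of that pair cannot be divided between them. A tag shared by *Oas3* with other genes had 317 and 236 copies. The Mx GTPases, which block viral nucleocapsids, were near the floor in GC-1spg: *Mx2* had 4 and 22 tags and was called higher (log2 ratio 2.56, interval 1.0 to 4.56), and *Mx1* had 2 and 4.

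*Isg15* and the ubiquitin ligase genes *Trim25* and *Trim21* were all called higher. *Isg15*, the ubiquitin-like modifier, had 11 and 236 tags, or 2.17 and 49.9 TPM, a ratio of 23.0-fold (log2 ratio 4.52, interval 3.66 to 5.55). *Trim25*, a ligase that acts on RIG-I, had 116 and 233 tags and was the called gene nearest the threshold at 2.16-fold (log2 ratio 1.11, interval 0.78 to 1.44), a call lost under TMM. *Trim21*, the cytosolic antibody receptor, had 9 and 28 tags (log2 ratio 1.74, interval 0.61 to 3.01), a call lost by the Audic-Claverie test, as were those of *Parp14* and *Ifitm3*. Its 2 main tags differed between the libraries: the exact tag had 0 and 24 copies, whereas a tag with 1 mismatch at the same site had 9 and 2.

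Other effectors with many tags were also called higher. *Bst2*, or tetherin, which holds budding virions at the cell surface, had 36 and 448 tags, or 7.10 and 94.8 TPM, 13.4-fold (log2 ratio 3.74, interval 3.25 to 4.27). *Rsad2*, or viperin, which makes a chain-terminating nucleotide, had no listed tag in the GC-1spg library and 150 tags in the other, equal to 31.7 TPM and at least 10.2-fold higher. Where a sense match was preferred over an antisense match to another gene it had 9 and 155 tags (log2 ratio 4.21, interval 3.25 to 5.36). *Lgals3bp*, a secreted galectin ligand, had 152 and 691 tags, or 30.0 and 146 TPM (log2 ratio 2.29, interval 2.03 to 2.55). *Ifi27*, a small membrane protein, had 95 and 349 tags (log2 ratio 1.98, interval 1.65 to 2.32). *Rtp4*, a chaperone of G-protein-coupled receptors, had 17 and 379 tags, or 3.35 and 80.2 TPM, 23.9-fold (log2 ratio 4.58, interval 3.88 to 5.38).

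The Ifitm proteins block virus entry at membranes and are encoded by near-identical genes. *Ifitm1* had 6 and 4 tags of its own, *Ifitm3* had 0 and 11, at least 2.49-fold higher, and *Ifitm2* had none in either. Nearly all tags of the family were shared, and the main shared tags are shown because they, and not the single-gene counts, carry most of the signal.
Tag shared by *Ifitm1* and *Ifitm3*: CATGaacttctgctgcctggg
Tag shared by *Ifitm1*, *Ifitm2* and *Ifitm3*: CATGtggtctggtccctgttc
The first, which also matches *Ifitm7* and a pseudogene, had 715 and 2232 copies, or 141 and 472 TPM (log2 ratio 1.74, interval 1.62 to 1.87). The second also matches other genes and had 998 and 994 copies, at a log2 ratio of 0.10. The direction for the single genes is therefore uncertain.

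The remaining effectors covered a range. *Samd9l*, which restrains viral translation, had 6 and 117 tags, 20.9-fold (log2 ratio 4.39, interval 3.22 to 5.86). *Ifi44* had none and 34, at least 4.71-fold higher, and *Xaf1*, a promoter of apoptosis, had 5 and 31 (log2 ratio 2.73, interval 1.36 to 4.45). The ADP-ribosyltransferases *Parp9*, with 46 and 110 tags (log2 ratio 1.36), and *Parp14*, with 10 and 27 (log2 ratio 1.53, interval 0.44 to 2.75), were both called higher. *Eif2ak2*, the RNA-dependent kinase PKR, had 119 and 167 tags (log2 ratio 0.59), *Ifi35* had 196 and 276 (log2 ratio 0.60), and neither reached 2-fold. *Isg20*, an RNA exonuclease, had 51 and 52 tags. *Adar*, the RNA-editing enzyme, had 32 and 56 tags (log2 ratio 0.91, interval 0.26 to 1.58) and was not called. A tag that also matches the antisense strand of *Chrnb2* had a further 42 and 155 copies. With that tag counted *Adar* had 74 and 211 tags (log2 ratio 1.61, interval 1.22 to 2.02) and would be called higher.

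The guanylate-binding proteins and immunity-related GTPases attack the membranes around intracellular pathogens and respond mainly to interferon gamma. They differed among themselves. *Gbp7* had 15 and 122 tags, 8.73-fold (log2 ratio 3.13, interval 2.35 to 4.01), and *Igtp* had 11 and 87, 8.49-fold (log2 ratio 3.09, interval 2.18 to 4.14). *Gbp2* had 216 and 158 tags, or 42.6 and 33.4 TPM, at a log2 ratio of -0.35 (interval -0.65 to -0.05). *Gbp3* had none and 6, and *Irgm1* none and 2, too few for a call; with poly(A) tags *Gbp3* had 491 and 742. The median log2 ratio of the group was 3.03, and 0.03 with the genes unlisted in GC-1spg at their smallest allowed ratio, so the median of these 5 genes depends on how those genes are treated.

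**Figure D3:**
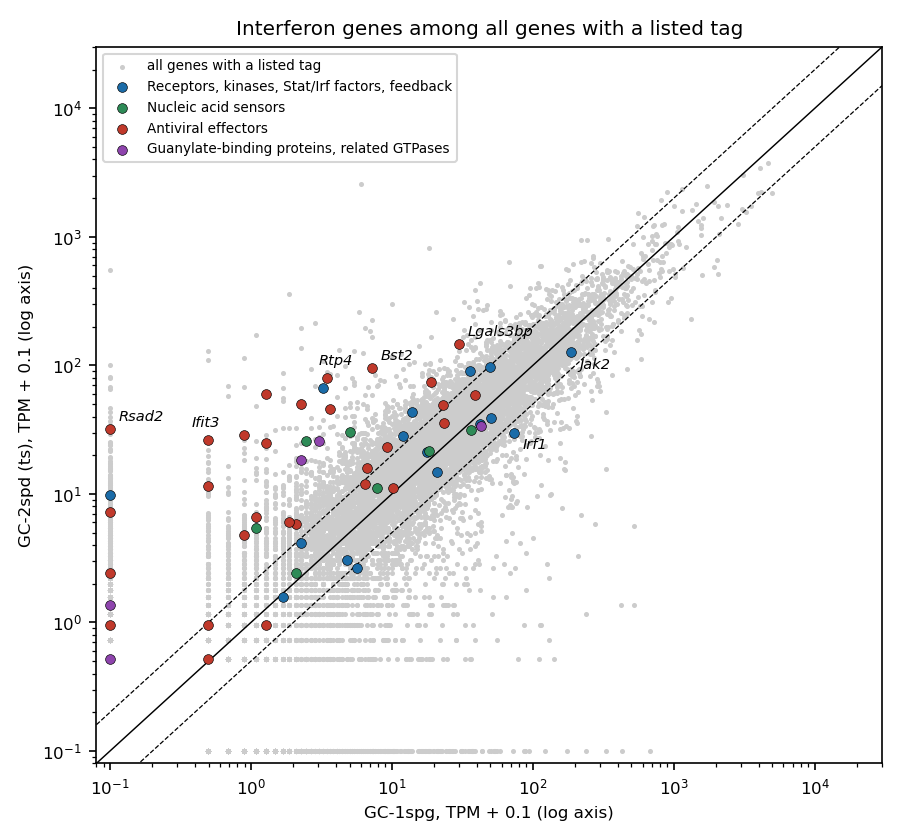
TPM + 0.1 in GC-1spg against TPM + 0.1 in GC-2spd (ts), both on log axes, for the 14450 genes with a listed tag (grey) and the 57 listed interferon genes (coloured by role); the solid line marks equal levels and dashed lines 2-fold. Effectors such as *Rsad2*, *Ifit3* and *Bst2* lie far above the lines, while *Irf1* lies below them and *Jak2* between them.

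Tags on the antisense strand were read separately and enter none of the values above. In the genes called higher they summed to 133 and 638 copies, beside 967 and 5377 sense copies. At least 1 antisense tag was found in 27 of these 31 genes and in 19 of the 24 that were not called. The share over all genes was not counted, so nothing is read from these counts. *Ifit1* had 2 and 143 antisense copies (log2 ratio 6.26, interval 4.38 to 9.32), *Bst2* had 7 and 57 (log2 ratio 3.13, interval 1.99 to 4.51) and *Rtp4* had 0 and 26. *Ifitm3* had 38 and 143 (log2 ratio 2.01), although its sense tags are mostly shared. The antisense tags of *Irf1* ran the other way, like its sense tags, with 38 and 8 copies (log2 ratio -2.15). Among genes that were not called, *Ifngr1* had 49 and 139 antisense copies (log2 ratio 1.61, interval 1.13 to 2.11) and *Gbp2* had 39 and 13 (log2 ratio -1.48). The strands differed in *Ifit2*, with 33 and 75 sense but 7 and 2 antisense copies, and *Trim25* had 25 and 23 antisense copies. Over the genes that were not called the antisense copies were 423 and 411, beside 2849 and 2660 sense copies.

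The promoters were searched for the motifs that interferon factors are known to bind. RefSeq promoters on GRCm38.p6, 250 bases before to 50 bases after each start, were at hand for 48 of the 59 genes. A motif for the interferon-stimulated response element, GAAA repeated after any 2 bases, was searched on either strand with overlaps allowed. It was found in 21 of the 48 genes (43.8%), and in 1079 of all 27025 genes with a promoter (3.99%). It was present in 11 of 23 genes called higher and in 9 of 21 that were neither, or 47.8% and 42.9%. Neither *Irf1* nor *Tyk2* had it. All 5 guanylate-binding protein and related GTPase genes had the motif, as had 11 of 23 effectors, 2 of 4 sensors and 3 of 16 signalling genes. The gamma-activated site motif, TTCNNNGAA on either strand, was found in 15 of the 48 genes (31.3%) and in 9.55% of all genes with a promoter. Listed genes with the response element motif had a median log2 ratio of 2.82 over 20 genes, from -0.35 to 8.34, and those without it 0.93 over 26 genes, from -1.29 to 6.21. With genes unlisted in GC-1spg set to the smallest ratio their counts allow, these medians were 1.28 and 0.93. A match of letters is not a measured binding site.

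**Figure D4:**
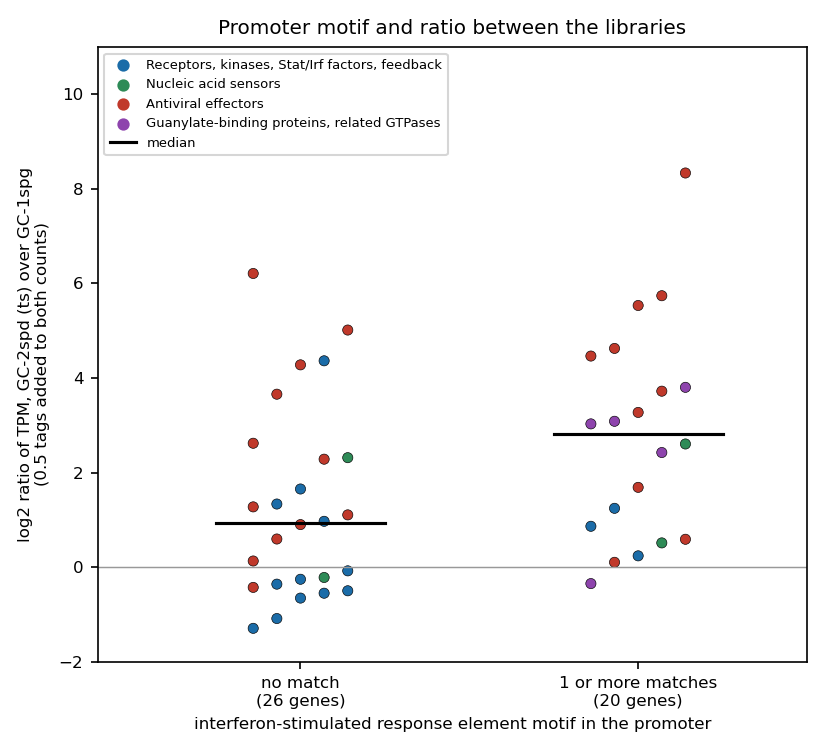
Log2 ratio of TPM, GC-2spd (ts) over GC-1spg, with 0.5 tags added to both counts, for listed interferon genes without (26 genes) and with (20 genes) a match to the response element motif in the RefSeq promoter; points are genes coloured by role and bars are medians. The medians are 0.93 and 2.82, or 0.93 and 1.28 with genes unlisted in GC-1spg at the smallest ratio their counts allow, and the ranges overlap over most of their length.

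The motif and its surroundings are shown for genes called higher and, for contrast, for *Ddx58* and *Gbp2*, which were not called. With poly(A) tags counted *Ddx58* had 136 and 269 tags and would be called higher. Each window lies on GRCm38.p6, is read on the strand that carries the match nearest the gene's start, and has the motif in capitals.
*Stat2*, chr10:128270266-128270295, minus strand: ctagggaaagGAAACTGAAAccagggtgcg
*Isg15*, chr4:156200865-156200894, minus strand: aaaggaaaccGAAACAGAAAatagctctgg
*Ifit1*, chr19:34640794-34640823, minus strand: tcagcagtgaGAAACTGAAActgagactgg
*Ifit3*, chr19:34583397-34583426, minus strand: gaggaaagtaGAAACTGAAAcagacttaaa
*Rsad2*, chr12:26456553-26456582, plus strand: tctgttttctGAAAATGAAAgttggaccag
*Bst2*, chr8:71537577-71537606, minus strand: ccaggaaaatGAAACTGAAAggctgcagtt
*Gbp7*, chr3:142530273-142530302, minus strand: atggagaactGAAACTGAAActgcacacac
*Igtp*, chr11:58199512-58199541, plus strand: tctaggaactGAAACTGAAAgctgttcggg
*Ddx58*, chr4:40239804-40239833, plus strand: ctggccatagGAAATCGAAActgcctcagg
*Gbp2*, chr3:142620594-142620623, minus strand: ttaagacagtGAAAGTGAAActaaaagagt
*Isg15* held 3 overlapping or neighbouring matches, and *Bst2*, *Ifit1* and *Ifit3* held 2 each.

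The wider interferon pathway, 116 further genes of which 82 were listed, held calls in both directions. Of these 27 were called higher, 11 lower and 44 neither, at a median log2 ratio of 0.45. Over all genes with a listed tag 14.4% were called higher and 9.92% lower, at a median of 0.13. This list too was drawn up with earlier results known, so nothing is read from the difference. The 9 interferon genes themselves that were looked up were *Ifna1*, *Ifna2*, *Ifna4*, *Ifnb1*, *Ifng*, *Ifnk*, *Ifne*, *Ifnl2* and *Ifnl3*. None had a listed tag in either library that belonged to 1 gene only. Tags shared by several genes were not looked at for them, and a tag of a single copy would not be listed, so absence of their transcripts is not shown. Among the genes called higher, the chemokine gene *Cxcl10* had 2 and 104 tags (log2 ratio 5.80), *Cmpk2*, a mitochondrial nucleotide kinase, had 2 and 93 (log2 ratio 5.64), and *Ifi27l2a* had 8 and 153 (log2 ratio 4.36). *Slfn8* had none and 34, at least 7.69-fold higher, and *Ifit3b*, a near copy of *Ifit3*, none and 24, at least 5.43-fold higher.

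Genes called lower included further members of the same families. *Ifi202b*, of the DNA-binding p200 family, had 186 and 0 tags, at least 22.4-fold lower. *Slfn2*, a relative of *Slfn8*, had 195 and 3 tags (log2 ratio -5.92). *Socs3*, a Stat3 feedback inhibitor, had 365 and 58 (log2 ratio -2.55). Of the 13 other guanylate-binding protein and immunity-related GTPase genes 7 were listed, with 2 called higher and 4 lower: *Gbp2b* had 110 and 21 tags (log2 ratio -2.29) and *Gbp9* had 25 and none, at least 3.70-fold lower.

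Markers of other cells were read beside these genes. Of 10 leukocyte markers 2 were listed, *Cd14* with 4 and 3 tags and *Cd74* with 19 and 9, and their sum went from 4.53 to 2.54 TPM. *Ptprc*, *Adgre1*, *Csf1r* and *Itgam*, which define leukocytes and macrophages, had no listed tag. Germ cell markers were nearly absent from both lines: of 14 only *Uchl1* was listed, with 329 and 66 tags. Of 9 fibroblast markers 8 were listed, summing to 3630 and 2645 TPM, or to 1567 and 2132 TPM without *Col1a1*. Among 5 Sertoli cell markers 4 were listed, with *Wt1* at 620 and 0 tags, *Gata4* at 29 and 138 and *Sox9* at 29 and 46. The germ cell origin in the labels is therefore not matched by these markers, and the lines are called by their names here.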

How the data were processed

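The authors made libraries of NlaIII tags on the Illumina platform, removed adaptors, tags with unread bases and single copies, and deposited, for each library, every clean tag with its count of copies and its TPM. Their counts were used; the deposited TPM column was not, since TPM was computed here from the same counts over all clean tags. Tags were matched to CATG plus 17 bases at every site of the 141767 GENCODE M21 transcripts (GRCm38), with at most 1 mismatch; 54.7% (GC-1spg) and 57.9% (GC-2spd (ts)) of clean tags had an unambiguous sense match. This replaces the UniGene set named in the study's methods.

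Fully described were the listed genes with at least 100 tags over both libraries, those called and those unlisted in 1 library; of the further pathway genes, those called with the largest ratios among genes with at least 20 tags, up to 5 a direction. A single gene that these rules name is left out and not reported here. Gene lists, members and rules were chosen with earlier results of these data known. On simulated data with 200 of 14450 genes changed 4-fold, 100% were recovered and 74 unchanged genes were called. The intervals held 96.4% of the simulated ratios. The changed genes were drawn from genes with many tags, and the simulated spread was counting noise only. Recovery of genes with few tags, of 2-fold changes or under biological spread was therefore not checked.

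Alternatives changed the matching, the scaling (TMM in edgeR 4.0.16, size factors in DESeq2 1.42.0), the minimum count and the call rule. The call rules included the Audic-Claverie test at the thresholds given in the study's methods, which do not name their test. They also included edgeR with an assumed biological coefficient of variation (BCV). R 4.3.3, Python 3.11.15, scipy 1.17.1 and pandas 2.3.3 were used.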

Additional observations from a re-analysis of the deposited data

How the results depend on the processing

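The 31 genes called higher became 15 with edgeR's exact test at an assumed BCV of 0.4, and between 26 and 34 under the other alternatives. At a BCV of 0.4 the 16 calls lost included *Jak1*, *Stat2*, *Irf9*, *Ifih1*, *Tlr3* and *Igtp*. The rest of those lost were effectors: *Ifi27*, *Ifit2*, *Ifitm3*, *Lgals3bp*, *Mx2*, *Parp9*, *Parp14*, *Trim21*, *Trim25* and *Xaf1*. The 2 called lower became 1 with ambiguous tags counted in full, with a 99% interval, by the Audic-Claverie test and at a BCV of 0.2, where *Tyk2* was lost each time, and 0 at a BCV of 0.4; they became 3 with poly(A) added to the transcripts, where *Oas1a* was called lower. *Trim25* lost its call under TMM, under DESeq2 size factors and with tags of the 3′ site alone. *Adar* was called higher with tags of the 3′ site alone, with sense matches preferred and with ambiguous tags counted in full. *Xaf1* reversed to a log2 ratio of -0.70 with ambiguous tags counted in full, through a repeat-type tag with 19699 and 11249 copies that many genes share; *Gbp7* and *Stat2* also lost their calls there. *Xaf1* was the only called gene whose sign changed under the matching, scaling and minimum-count alternatives, while 8 genes that were not called changed sign under at least 1 of them (*Ddx58*, *Ifitm1*, *Ifnar1*, *Ifngr2*, *Isg20*, *Oas1a*, *Oas3* and *Tmem173*). No paired analysis was possible because each line has 1 library, and no library could be left out for the same reason. Depth limits genes with few tags: *Mx1*, *Oas3* and *Irgm1* have too few copies for any direction.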

Other observations

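Some transcripts end so soon after their last NlaIII site that the tag runs into the poly(A) tail, and such tags have no match in the transcripts as annotated. With 20 bases of poly(A) added to each transcript, *Gbp3* went from 0 and 6 tags to 491 and 742 (GC-1spg first), or 96.8 and 157 TPM (log2 ratio 0.70, interval 0.53 to 0.86), which made it more abundant than *Gbp2*. Its added tags are shown because they account for nearly all of that count.
*Gbp3* tag, first: CATGcagattaaaataaaaaa
*Gbp3* tag, second: CATGcagattaaaaaaaaaaa
The first had 242 and 498 copies and the second 245 and 220, so the tags of this gene did not share 1 ratio.

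*Ddx58* went to 136 and 269 tags (log2 ratio 1.09, interval 0.78 to 1.39) and would be called higher with these tags, of which the main one had 71 and 184 copies. *Oas1a* went to 216 and 88 tags (log2 ratio -1.19) through a tag with 1 mismatch that had 213 and 84 copies, against 8 and 80 copies of the tag it shares with *Oas1g*. *Tmem173* went to 221 and 174 tags, at a log2 ratio of -0.24.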
